A study of Rattus norvegicus with 16 samples.

Results

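The comparison is between rat hippocampi labelled depression-susceptible and hippocampi labelled anxiety-susceptible after the same 8 weeks of chronic mild stress (CMS, a schedule of small changing stressors). Samples were chosen by their group label, which gives 4 depression-susceptible and 4 anxiety-susceptible arrays, 8 of the 16 in the study. Both groups are male Sprague-Dawley rats that went through CMS. The 4 control arrays come from male rats of the same strain kept free of CMS, and the 4 insusceptible arrays from rats that went through CMS. Control values are set beside the named genes to show which of the susceptible groups lay away from unstressed tissue. The ages of the animals, the behavioural criteria behind the labels, and whether each array holds 1 animal are not given in the sources used here. Each array is a single-colour Agilent array with probes for messenger RNAs and long non-coding RNAs, hybridised with randomly primed Cy3-labelled RNA.

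Chronic mild stress is a rodent model in which animals differ in outcome: some lose interest in sweet solutions, a measure of anhedonia, and others avoid open spaces, a measure of anxiety. The hippocampus takes part in memory and in the feedback that ends a corticosteroid response. A dissected hippocampus borders the lateral ventricle, so it can carry choroid plexus, the epithelium that makes cerebrospinal fluid, and it holds blood in its vessels. In whole tissue, fewer cells of a type and less RNA per cell cannot be told apart.

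All levels below are log2 processed signals relative to the 75th percentile of their own array, so 0 is that percentile, and a level is compared only with the same probe on other arrays. Arrays of 1 group on 1 slide differed from each other by 0.481 to 1.021 times the variance between repeated spots of a probe (16 pairs). They were therefore averaged into 1 sample: 2 samples for depression-susceptible (slides 1 and 2), 1 for anxiety-susceptible (slide 3), 2 for control (slides 1 and 2) and 1 for insusceptible (slide 4). The anxiety-susceptible group thus has no spread of its own, and standard errors (SE) and p-values measure the difference between slides 1 and 2, not between animals. Arrays of 1 slide are near repeats, so arrays that do not overlap between groups are given below as description only. The share of all probes without overlap was not counted. With all 16 arrays taken as samples, 11028 probes differed between the susceptible groups in limma (adjusted p under 0.05). Slides 1 and 2 were scanned on day 1 and slides 3 and 4 on day 2, and the 75th percentile of the signal was 4531 to 5293 on depression-susceptible arrays and 1630 to 1903 on anxiety-susceptible arrays. Group, slide and scan day cannot be told apart between the susceptible groups. Of 6 neuronal markers 5 were tested, and 4 were well above background on all 8 arrays, which does not tell hippocampus from neighbouring brain tissue. Markers of thalamus, striatum and cortex (2, 4 and 1 tested) had median depression- minus anxiety-susceptible differences of -0.02, 0.31 and 0.37. The part of neighbouring tissue was not tested. Prox1, the dentate granule cell factor, was well above background on 3 depression-susceptible arrays and 1 anxiety-susceptible array.

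Few genes separated the susceptible groups beyond the spread between slides 1 and 2. Both were scanned on day 1, so the spread between slides of different days was not measured. The control and depression-susceptible groups supply this spread, and their slide differences were correlated (0.721), so they are not independent measures of it. In limma's fit to the 6 samples, 52 of 17856 probes (0.291%) passed a Benjamini-Hochberg adjusted p of 0.05. Of these, 25 (0.14%) were higher and 27 (0.151%) were lower in depression-susceptible hippocampus. They cover 46 gene symbols, 23 higher, among them 6 hemoglobin genes, and 23 lower, among them 8 choroid plexus genes. Against control, 1766 probes (9.89%) passed in depression-susceptible hippocampus, 1299 higher (7.28%) and 467 lower (2.62%). These groups share slides 1 and 2, and the differences between the slides correlated at 0.721 across 17713 probes in both groups; with slide as a block on these 4 samples, chosen after seeing the data, 6560 probes passed in limma, all 1766 among them. Against the same control samples, 5000 (28%) passed in anxiety-susceptible hippocampus, 2648 higher (14.8%) and 2352 lower (13.2%). The count between the susceptible groups is set by a narrow margin: 5523 probes (30.9%) had an unadjusted p under 0.05 and 427 had an adjusted p under 0.06. Without either depression-susceptible or either control slide, 0 passed in limma, with 3502 to 4837 probes at an unadjusted p under 0.05, and 25 passed without depression-susceptible replicate 2. With quantile normalization in place of the 75th percentile, 1849 probes passed (10.4%), 1293 higher (7.24%) and 556 lower (3.11%), and all 52 were among them with the same sign.

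**Figure D1:**
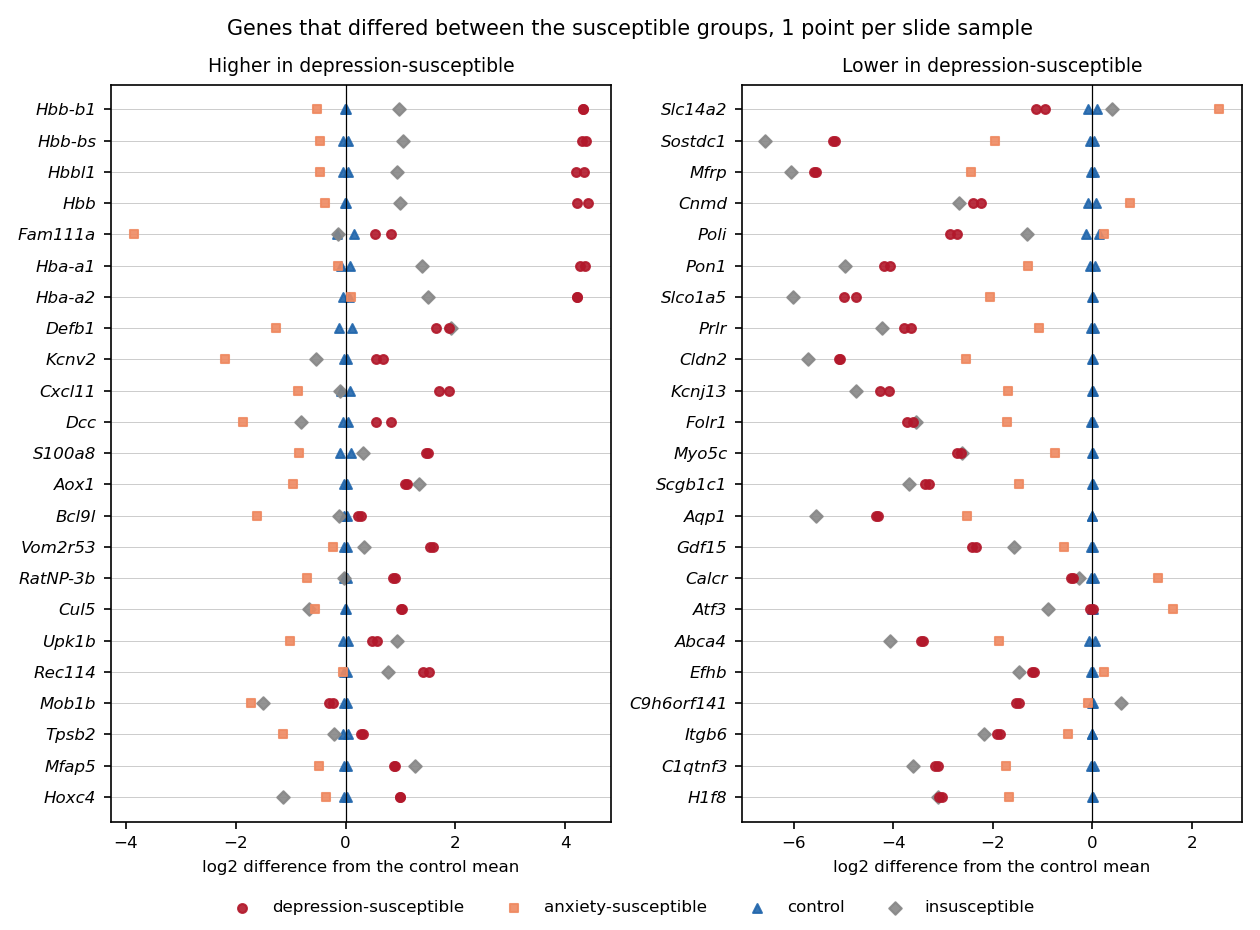
Each row is a gene symbol whose probe differed between depression-susceptible and anxiety-susceptible hippocampus (limma adjusted p under 0.05), and the x axis is the log2 difference from the control mean. Points are slide samples (2 depression-susceptible, 1 anxiety-susceptible, 2 control, 1 insusceptible); 6 hemoglobin genes lie 4.21 to 4.34 to the right of control in depression-susceptible samples, and the choroid plexus genes lie left of control in both susceptible groups.

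Hemoglobin genes were the largest difference. Hbb-b1, a beta globin chain of adult hemoglobin, was at 2.99, 3.04, 3.0 and 3.03 on depression-susceptible arrays, against -1.76, -1.90, -1.83 and -1.80 on anxiety-susceptible arrays. Control arrays read -1.31, -1.30, -1.29 and -1.29, and insusceptible arrays -0.34, -0.33, -0.30 and -0.31. Every depression-susceptible array stood above all 12 others, and the anxiety-susceptible arrays were the lowest. The difference between the susceptible groups was 4.84 (SE 0.09, 28.6-fold, limma adjusted p 0.0112). Set against control, depression-susceptible hippocampus was higher by 4.31 (limma adjusted p 0.00196), and the anxiety-susceptible level fell by 0.53 (limma adjusted p 0.0266).

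The alpha chain gene Hba-a1 showed the same order with dimmer probes. Its levels were -1.68, -1.65, -1.75 and -1.78 on depression-susceptible arrays, against -6.23, -6.09, -6.48 and -5.91 on anxiety-susceptible arrays and -6.11, -6.13, -5.91 and -6.00 on control arrays. The groups labelled depression-susceptible and anxiety-susceptible did not overlap, while anxiety-susceptible and control arrays did. The difference was 4.46 (SE 0.12, limma adjusted p 0.0122), and anxiety-susceptible minus control was -0.14 (limma adjusted p 0.417). Under normexp, another background correction, the difference was 2.63, so its size depends on how dim signals are treated.

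The hemoglobin genes Hbb-bs, Hbbl1, Hbb and Hba-a2 were also higher in depression-susceptible hippocampus by 4.80, 4.73, 4.68 and 4.11, with limma adjusted p-values of 0.0112 to 0.0122. Their differences from control were 4.34, 4.27, 4.31 and 4.21 in depression-susceptible and -0.46, -0.46, -0.37 and 0.10 in anxiety-susceptible hippocampus. Further globin genes did not pass: Hba-a3 differed by 2.64 (limma adjusted p 0.0605, -0.50 under normexp) and was well above background on 0 anxiety-susceptible arrays, and Hbe2, an embryonic type, differed by -0.97 (limma adjusted p 0.303). These genes are close copies of each other in 2 clusters, so their probes may share signal. Promoter windows of 1 gene from each cluster are shown because genes on different chromosomes shifted together. They run from 250 bases before to 50 after the start and come from RefSeq on build GRCr8. Capitals mark CCAAT and CACCC on either strand, and the TATA-type letters ATAAAA (Hbb) or TATAAA (Hba-a1), which share 5 letters and can overlap. The Hbb window is chr1:167663672-167663971, minus strand, and the Hba-a1 window is chr10:15842531-15842830, minus strand.
Hbb: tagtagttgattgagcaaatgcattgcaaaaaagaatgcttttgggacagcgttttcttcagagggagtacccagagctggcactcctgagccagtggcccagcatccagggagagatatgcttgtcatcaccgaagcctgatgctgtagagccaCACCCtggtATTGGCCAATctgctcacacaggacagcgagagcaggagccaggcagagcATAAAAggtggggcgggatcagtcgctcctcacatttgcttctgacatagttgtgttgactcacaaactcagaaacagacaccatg
Hba-a1: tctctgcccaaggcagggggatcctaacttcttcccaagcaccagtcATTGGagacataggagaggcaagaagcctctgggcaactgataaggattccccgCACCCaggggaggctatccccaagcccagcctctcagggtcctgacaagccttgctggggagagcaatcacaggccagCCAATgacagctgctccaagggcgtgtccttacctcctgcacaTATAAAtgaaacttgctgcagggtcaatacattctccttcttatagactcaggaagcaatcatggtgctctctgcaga
All 6 hemoglobin windows hold CCAAT and CACCC, letters known from globin promoters, as do 37.5% and 54.9% of the 33469 windows in the table. TATAAA is in 5 of the 6 (14.2% of all windows) and ATAAAA is in 1 (20.5%). AGATAA, 1 spelling of the erythroid GATA letters, is in 0 (11.6%). Other spellings were not counted, and the Hba-a1 window holds TGATAA, left in small letters above. A match describes the letters and nothing about binding.

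**Figure D2:**
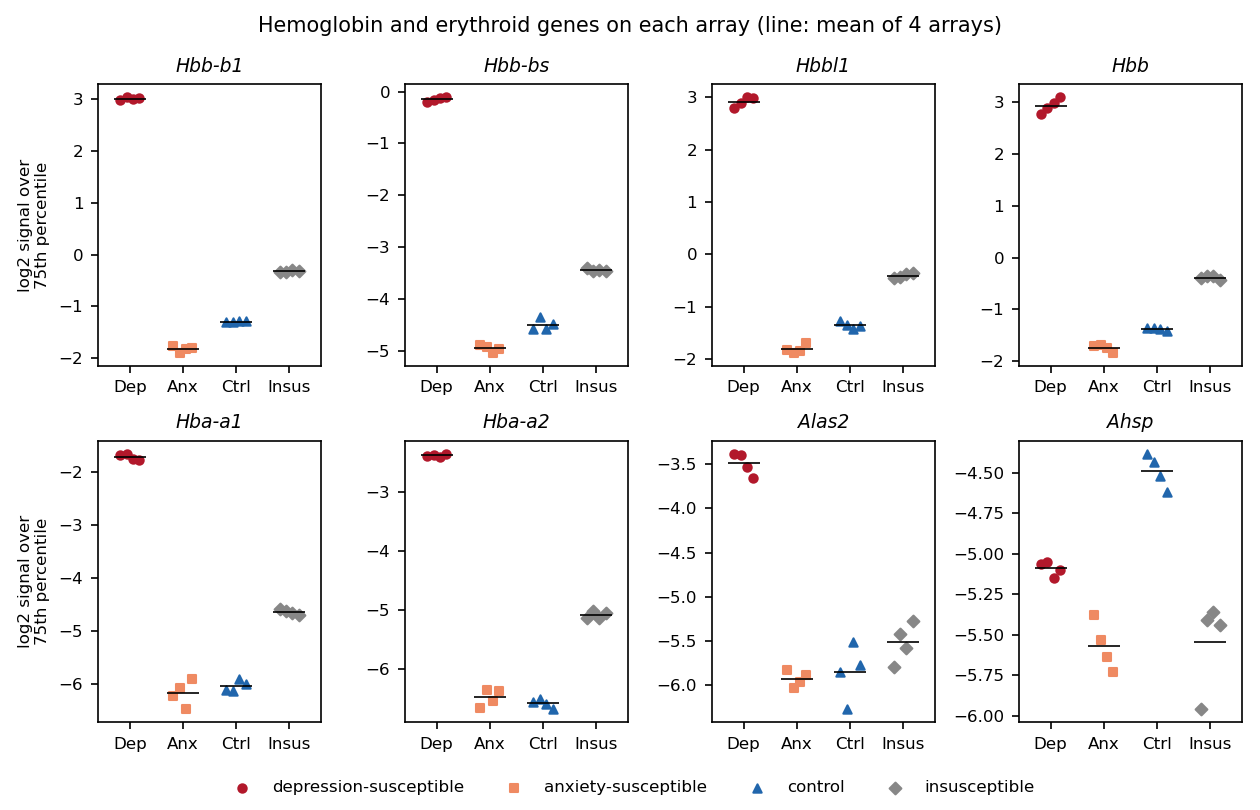
Log2 signal relative to the array's 75th percentile for 8 hemoglobin and erythroid genes, 1 point per array and a line at the mean of the 4 arrays of a group. For the 6 hemoglobin genes and Alas2 the depression-susceptible arrays lie above every other array; for Ahsp the control arrays are the highest.

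Other genes of red blood cells and their precursors did not all follow. Alas2, the first enzyme of heme synthesis in erythroid cells, was at -3.38, -3.40, -3.53 and -3.66 on depression-susceptible arrays, against -5.83, -6.03, -5.96 and -5.88 on anxiety-susceptible arrays. These arrays did not overlap, but the difference of 2.43 (SE 0.22) had a limma adjusted p of 0.0596 (0.0376 with quantile normalization). Ahsp, the chaperone of free alpha globin, differed by 0.48 (limma adjusted p 0.0935, -0.36 under normexp) and was 0.60 lower than control in depression-susceptible and 1.09 lower in anxiety-susceptible hippocampus. Klf1, a transcription factor of erythroid precursors, differed by -0.07 (limma adjusted p 0.695), and Gata1, another such factor, by -1.17 (limma adjusted p 0.141). Against control, Klf1 stood at -0.19 and Gata1 at 0.01 in depression-susceptible hippocampus, and at -0.12 and 1.18 in anxiety-susceptible hippocampus. Of the 13 red blood cell genes tested, 5 were higher (0.14% of all probes), all of them globin genes named above. Lower were 0 (0.151% of all probes), with 4 of the 13 differences below 0. Their median difference was 2.43, beside 0.05 over all 11338 gene symbols, and -0.14 under normexp. The summed signal of 5 red cell markers was 4.06 and 3.97 on the log2 scale in the depression-susceptible samples, -0.66 in the anxiety-susceptible sample, and -0.20 in both control samples. The part of blood left in the tissue in these differences was not tested.

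Genes of the choroid plexus were lower in depression-susceptible than in anxiety-susceptible hippocampus, and both groups lay below control. Sostdc1, a secreted protein that blocks BMP and Wnt ligands, was at -3.08, -3.14, -3.07 and -3.05 on depression-susceptible arrays, against 0.08, 0.14, 0.14 and 0.18 on anxiety-susceptible arrays. Control arrays read 2.15, 2.14, 2.01 and 2.12, and insusceptible arrays -4.52, -4.53, -4.40 and -4.45. No groups overlapped, and the order was control, anxiety-susceptible, depression-susceptible, insusceptible. Depression-susceptible minus anxiety-susceptible was -3.22 (SE 0.10, 9.34-fold lower, limma adjusted p 0.0126). The differences from control were -5.19 for depression-susceptible and -1.97 for anxiety-susceptible, with limma adjusted p-values of 0.00196 and 0.00584.

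Mfrp, a frizzled-related membrane protein, had the lowest depression-susceptible minus control difference of the 25 genes tested, at -5.56. Its levels were -2.45, -2.36, -2.49 and -2.39 on depression-susceptible arrays, against 0.70, 0.72, 0.70 and 0.73 on anxiety-susceptible arrays and 3.19, 3.17, 3.04 and 3.18 on control arrays. The groups stood clear of each other. The susceptible groups differed by -3.13 (SE 0.09, 8.77-fold lower, limma adjusted p 0.0126). Its promoter window is shown because it was the only 1 of the 8 windows found for the 12 largest falls that holds TAATCC, the letters read by OTX factors, which is in 7.17% of all windows. The window is chr8:53342284-53342583, plus strand, with the match on the minus strand in capitals.
Mfrp: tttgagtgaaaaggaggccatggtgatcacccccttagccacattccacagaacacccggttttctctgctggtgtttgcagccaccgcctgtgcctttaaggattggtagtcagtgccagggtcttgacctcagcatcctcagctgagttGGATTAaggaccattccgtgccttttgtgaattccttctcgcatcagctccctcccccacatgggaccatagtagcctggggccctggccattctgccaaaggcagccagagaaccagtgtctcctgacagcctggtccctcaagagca

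The other 6 choroid plexus genes that passed were transport, junction and receptor genes. Cldn2, a claudin that forms cation-selective tight junctions, fell by 2.53 in depression-susceptible relative to anxiety-susceptible hippocampus (SE 0.09, limma adjusted p 0.0191), with means of -4.41 and -1.88 and a control mean of 0.66. Kcnj13, the inward rectifier Kir7.1 of the apical membrane, fell by 2.47 (SE 0.12, limma adjusted p 0.0326). Aqp1, the water channel of that membrane, fell by 1.81 (SE 0.09, limma adjusted p 0.0326), and its control mean of 0.73 was above both the depression-susceptible mean of -3.59 and the anxiety-susceptible level of -1.78. The organic anion transporter gene Slco1a5 fell by 2.81, and Folr1, the folate receptor that carries folate into cerebrospinal fluid, fell by 1.94, both at a limma adjusted p of 0.0326. Prlr, the prolactin receptor, fell by 2.64 (limma adjusted p 0.0269). Kcnj13, Slco1a5, Folr1 and Prlr lay 4.17, 4.87, 3.66 and 3.71 below control in depression-susceptible hippocampus, and 1.70, 2.05, 1.72 and 1.07 below it in anxiety-susceptible hippocampus.

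Ttr, the thyroxine carrier transthyretin, behaved differently against control. It was at 4.13, 4.17, 4.42 and 4.40 on depression-susceptible arrays, against 6.21, 6.30, 6.45 and 6.35 on anxiety-susceptible arrays and 5.94, 5.83, 5.68 and 5.58 on control arrays. Insusceptible arrays read 2.91, 2.90, 2.85 and 2.92. Anxiety-susceptible arrays were the highest, depression-susceptible arrays lay below control, and insusceptible arrays were the lowest. The difference of -2.05 (SE 0.18) had a limma adjusted p of 0.0581 (0.0235 with quantile normalization). Depression-susceptible minus control was -1.48 (limma adjusted p 0.0153) and anxiety-susceptible minus control 0.57 (limma adjusted p 0.0874).

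Of the 25 choroid plexus genes tested, 8 were lower (0.151% of all probes) and 0 higher (0.14%). With quantile normalization 18 were lower (3.11% of all probes), and all 25 differences were below 0 in the main fit. Their median difference was -1.34 beside 0.05 over all gene symbols. Depression-susceptible minus control had a median of -2.90 with 23 of the 25 lower (2.62% of all probes). Anxiety-susceptible minus control had a median of -1.55 with 22 lower (13.2% of all probes). The smallest differences between the susceptible groups were those of Htr2c (-0.04), a serotonin receptor gene that hippocampal neurons also express, and Cldn1 (-0.19). The summed signal of 9 choroid plexus markers was 4.46 and 4.21 in depression-susceptible samples, against 6.4 in the anxiety-susceptible sample and 6.31 and 6.12 in control samples, and most of it was Ttr. Without Ttr the sum of the other 8 was -0.55 and -0.49 in depression-susceptible samples, against 2.11 in the anxiety-susceptible sample and 4.34 and 4.31 in control samples. The insusceptible sample was lower still, at 2.98 with Ttr and -1.07 without it. The part of the amount of choroid plexus taken with each hippocampus was not tested.

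**Figure D3:**
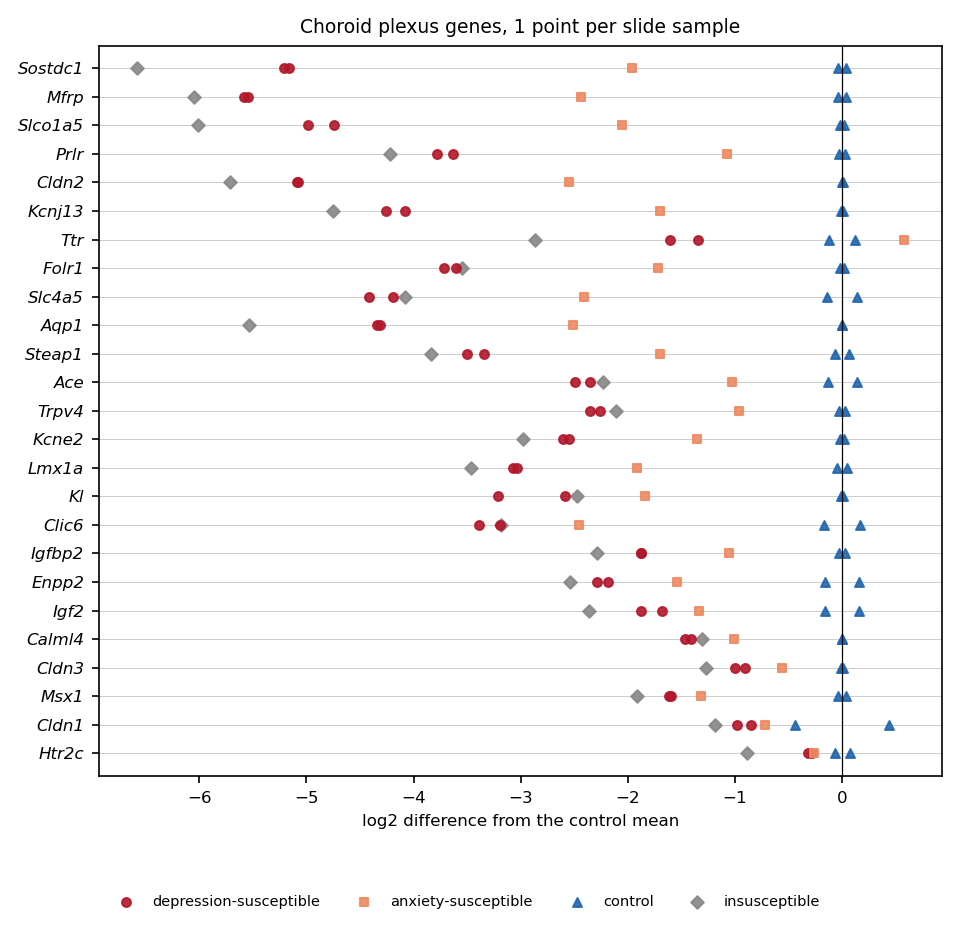
Each row is 1 of the 25 choroid plexus genes, ordered by the difference between depression-susceptible and anxiety-susceptible hippocampus, and the x axis is the log2 difference from the control mean. Points are slide samples; for every gene the depression-susceptible points lie left of the anxiety-susceptible point, and Ttr is the only gene whose anxiety-susceptible point lies right of control.

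Several further genes with large falls, outside the choroid plexus list, had the same order with control at the top. Abca4, C1qtnf3, Itgb6, Scgb1c1 and Myo5c fell by 1.54, 1.38, 1.40, 1.85 and 1.93 in depression-susceptible relative to anxiety-susceptible hippocampus, and all 5 were below control in both groups. Pon1, a secreted esterase, fell by 2.84 (SE 0.11, limma adjusted p 0.0226). Its level was -7.13, -7.15, -6.97 and -7.06 on depression-susceptible arrays, against -4.19, -4.21, -4.29 and -4.27 on anxiety-susceptible arrays and -2.90, -2.92, -3.03 and -2.97 on control arrays. Cnmd, the cartilage matrix gene chondromodulin, fell by 3.08 (limma adjusted p 0.0279) and by 2.13 under normexp. It was 0.76 above control in anxiety-susceptible and 2.32 below it in depression-susceptible hippocampus. Its depression-susceptible arrays read -5.77, -7.75, -6.78 and -7.08, with 3 of them well above background. The first 2 share a slide, so averaging keeps their spread out of the SE of 0.13. Among ciliary genes of the ependyma, the layer lining the ventricles, 1 of 54 fell, beside 0.151% of all probes. It was Efhb, which fell by 1.43 (SE 0.09, limma adjusted p 0.0474), with anxiety-susceptible minus control at 0.24 (limma adjusted p 0.12). Of the 53 with a measured difference, 35 were below 0, while 54.8% of all gene symbols were above 0. Their median was -0.22, beside 0.05 over all gene symbols. It was -0.07 beside 0.06 with quantile normalization, and -0.41 beside -0.09 under normexp. With quantile normalization 2 were higher and 6 lower, beside 7.24% and 3.11% of all probes.

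A second set of genes separated the groups because anxiety-susceptible hippocampus lay away from control. Atf3, a stress-induced transcription factor of the ATF/CREB family, was at -3.25, -3.03, -3.11 and -3.29 on depression-susceptible arrays, against -1.54, -1.57, -1.63 and -1.38 on anxiety-susceptible arrays. Control arrays read -3.17, -3.15, -3.13 and -3.13, and insusceptible arrays -4.04, -4.08, -4.12 and -3.94. Only anxiety-susceptible arrays were above -3, and depression-susceptible and control arrays overlapped. The difference was -1.64 (SE 0.09, 3.13-fold lower, limma adjusted p 0.0357), with depression-susceptible minus control at -0.03 (limma adjusted p 0.834) and anxiety-susceptible minus control at 1.62 (limma adjusted p 0.00616).

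Atf3 was the 1 immediate early gene of 32 that passed, on the lower side, where 0.151% of all probes passed. Sik1, a kinase gene induced by cAMP signalling, was at -5.31, -4.93, -5.38 and -4.92 on depression-susceptible arrays, against -3.75, -3.73, -3.65 and -3.55 on anxiety-susceptible arrays and -7.46, -7.90, -7.41 and -7.46 on control arrays. Both susceptible groups stood above control without overlap, anxiety-susceptible further, and control was well above background on 1 array. Their difference of -1.46 (SE 0.14) had a limma adjusted p of 0.0596. Ccn1, a matricellular early gene, differed by -1.38 at the same limma adjusted p, and Fos, a subunit of AP-1, by -0.71 (limma adjusted p 0.0803). Ccn1 and Fos were 0.86 and 0.39 above control in depression-susceptible hippocampus (limma adjusted p 0.0337 and 0.135), and 2.24 and 1.1 above it in anxiety-susceptible hippocampus (limma adjusted p 0.00728 and 0.0197). In the opposite direction Nr4a2, an orphan nuclear receptor, differed by 0.92 (limma adjusted p 0.0596), 0.48 above control in depression-susceptible and 0.44 below it in anxiety-susceptible hippocampus. The 32 genes were even in sign, 16 above and 16 below 0, with a median of -0.02. With quantile normalization 3 were higher and 4 lower, beside 7.24% and 3.11% of all probes.

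Fam111a, which encodes a chromatin-bound protease, was at 0.19, -0.15 and -0.04 on the 3 depression-susceptible arrays with a usable spot, against -4.56, -4.22, -4.53 and -4.64 on anxiety-susceptible arrays. Control arrays read -0.76, -0.80, -0.47 and -0.49, and insusceptible arrays -0.74, -0.79, -0.77 and -0.75. The anxiety-susceptible arrays alone were low, by 4.53 against depression-susceptible hippocampus (SE 0.20, 23.2-fold, limma adjusted p 0.0279). Bcl9l, a co-activator of beta-catenin, had the same pattern: -1.27, -1.31, -1.24 and -1.24 on depression-susceptible arrays, against -3.14, -3.08, -3.15 and -3.13 on anxiety-susceptible arrays and -1.47, -1.52, -1.63 and -1.47 on control arrays. The difference was 1.86 (SE 0.09, limma adjusted p 0.0326), and depression-susceptible minus control was 0.26 (limma adjusted p 0.121, 0.0348 with slide as a block). For Fam111a it was 0.68 (limma adjusted p 0.0891, 0.0108 with slide as a block). A level found on 1 slide alone cannot be told apart from that slide.

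Aox1, an aldehyde oxidase gene, moved on both sides of control. It was at 0.51, 0.54, 0.45 and 0.64 on depression-susceptible arrays, against -1.49, -1.52, -1.46 and -1.66 on anxiety-susceptible arrays and -0.57, -0.54, -0.60 and -0.57 on control arrays. Control lay between the susceptible groups, with no overlap. The difference was 2.07 (SE 0.09, 4.19-fold, limma adjusted p 0.0274), made of 1.1 above control in depression-susceptible and 0.96 below it in anxiety-susceptible hippocampus. Rec114, a meiotic recombination gene, differed by 1.52 (SE 0.10, limma adjusted p 0.0474) and was 1.46 above control in depression-susceptible and 0.05 below it in anxiety-susceptible hippocampus, with a difference of 0.81 under normexp. Calcr, the calcitonin receptor, fell by 1.74 (SE 0.09, limma adjusted p 0.0326), with -6.81, -6.88, -6.91 and -6.72 on depression-susceptible arrays, against -4.70, -5.21, -5.48 and -4.97 on anxiety-susceptible arrays. Its control arrays, at -6.40, -6.38, -6.51 and -6.37, were 0.42 above the depression-susceptible mean (limma adjusted p 0.0501, 0.0185 with slide as a block).

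**Figure D4:**
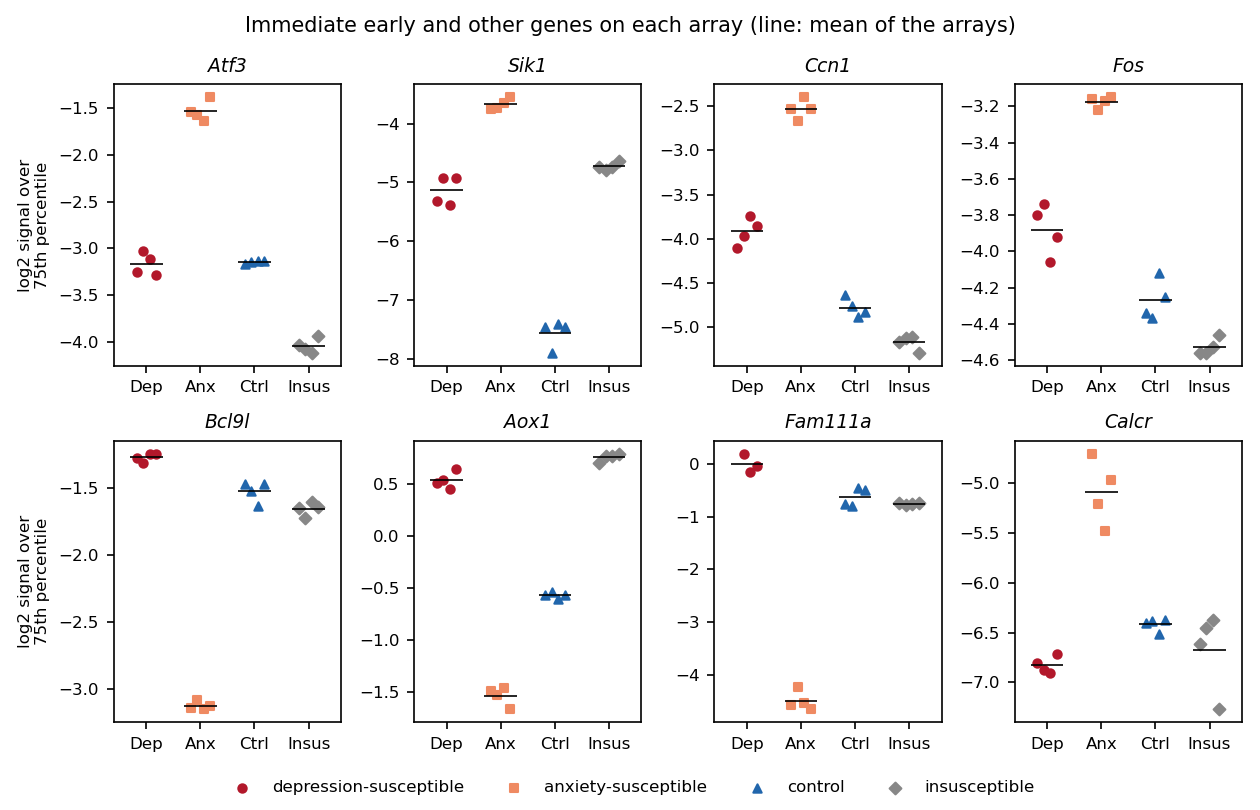
Log2 signal relative to the array's 75th percentile for 8 genes, 1 point per array and a line at the mean of the arrays (3 depression-susceptible arrays for Fam111a, 4 elsewhere). Anxiety-susceptible arrays stand apart from all others, above them for Atf3, Sik1, Ccn1, Fos and Calcr and below them for Bcl9l, Aox1 and Fam111a.

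Several of the remaining genes on the higher side were dim on the anxiety-susceptible arrays, which limits what can be said of them. Of all 25 probes on that side, 5 were well above background on 0 anxiety-susceptible arrays. Defb1, a beta-defensin, Dcc, a netrin receptor, and Kcnv2, a silent potassium channel subunit, were well above background on all 4 depression-susceptible arrays and on 0 anxiety-susceptible arrays. With dim signals raised, if needed, to a floor, the array's faintest detected probe, they were 4.59-fold, 4.79-fold and 3.87-fold higher in depression-susceptible hippocampus. Without the floor their limma adjusted p-values were 0.0357, 0.0444 and 0.0226. These folds are not lower bounds: under normexp the 3 differences were 0.13, 0.14 and -0.22 on the log2 scale. Depression-susceptible minus control was 1.76, 0.68 and 0.62 (limma adjusted p 0.0088, 0.0539 and 0.0314), and 0.017 for Dcc with slide as a block. S100a8, a calcium-binding protein of neutrophils, was at -4.22, -4.42, -4.39 and -4.33 on depression-susceptible arrays, against -6.61, -6.63, -6.95 and -6.50 on anxiety-susceptible arrays and -5.88, -5.97, -5.68 and -5.77 on control arrays. The groups did not overlap, and the difference of 2.33 (SE 0.13, limma adjusted p 0.0339) was 0.41 under normexp. Cxcl11, a chemokine induced by interferon, differed by 2.67 (limma adjusted p 0.0326) and by 0.78 under normexp, and was 1.79 above control in depression-susceptible and 0.88 below it in anxiety-susceptible hippocampus. Of the 25 probes on the higher side, 11 kept at least 0.5 of their log2 size under normexp, against 26 of the 27 on the lower side.

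On the lower side Slc14a2, a urea transporter gene, was well above background on 4 anxiety-susceptible arrays and on 0 of the other 12. With the same floor, its anxiety-susceptible level was 4.31-fold the depression-susceptible one (limma adjusted p 0.0226 without the floor). Gdf15, a stress-induced cytokine, passed at a limma adjusted p of 0.0339 but was well above background on 0 arrays of either susceptible group, so it has no measured difference here; it was well above background on all 4 control arrays.

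Genes often studied in stress and mood were then read as a fixed list of 26, of which 24 were tested. None passed limma's adjusted p of 0.05 between the susceptible groups in the 6-sample fit, while 12 of the 24 had an unadjusted p under 0.05 (30.9% of all probes did) and 6 passed with quantile normalization (10.4% of all probes). Bdnf, the neurotrophin of activity-dependent plasticity, was at 0.60, 0.50, 0.25 and 0.37 on depression-susceptible arrays, against -0.35, -0.46, -0.43 and -0.44 on anxiety-susceptible arrays and 0.74, 0.70, 0.84 and 0.98 on control arrays. Insusceptible arrays read -0.13, -0.10, -0.10 and -0.08. The arrays did not overlap, and control was the highest. The difference was 0.85 (95% interval 0.41 to 1.29, limma adjusted p 0.0705), and anxiety-susceptible minus control was -1.24 (limma adjusted p 0.0182). Depression-susceptible minus control was -0.39 (limma adjusted p 0.153, 0.0211 with slide as a block).

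Npy, a peptide of hippocampal interneurons, was at 3.41, 3.27, 3.37 and 3.51 on depression-susceptible arrays, against 2.53, 2.67, 2.66 and 2.69 on anxiety-susceptible arrays and 3.97, 4.02, 3.84 and 3.76 on control arrays. Insusceptible arrays read 2.56, 2.50, 2.49 and 2.52. Depression-susceptible arrays lay between the anxiety-susceptible and control arrays. The difference was 0.75 (95% interval 0.38 to 1.11, limma adjusted p 0.0672), and depression-susceptible minus control was -0.51 (limma adjusted p 0.0695, 0.0178 with slide as a block). Gad2, the synaptic form of the enzyme that makes GABA, differed by 0.67 (95% interval 0.43 to 0.92, limma adjusted p 0.0605), while Gad1, the other form, differed by -0.40 (95% interval -0.74 to -0.07, limma adjusted p 0.124). The levels of Gad1 and Gad2 were 4.19 and -2.72 in the insusceptible sample and 4.26 and -2.93 in the anxiety-susceptible sample. Their depression-susceptible means were 3.86 and -2.26. Gad1 stood at -0.06 in depression-susceptible and 0.35 in anxiety-susceptible hippocampus relative to control. Gad2 was below control in both groups, by 0.69 in depression-susceptible and 1.36 in anxiety-susceptible hippocampus (limma adjusted p 0.0165 and 0.0069).

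Corticosteroid genes were read next. Nr3c1, the glucocorticoid receptor, was at 2.38, 2.25, 2.35 and 2.41 on depression-susceptible arrays, against 1.99, 2.03, 2.01 and 2.07 on anxiety-susceptible arrays and 2.33, 2.36, 2.23 and 2.16 on control arrays, a difference of 0.32 (95% interval 0.01 to 0.63, limma adjusted p 0.152). Nr3c2, the mineralocorticoid receptor, differed by 0.49 (95% interval 0.15 to 0.83, limma adjusted p 0.0971). Fkbp5, a chaperone that dampens the glucocorticoid receptor, differed by -0.40 (95% interval -0.76 to -0.04, limma adjusted p 0.136). Crh, the peptide that starts the hormonal stress response, differed by 0.25 (95% interval -0.24 to 0.74). The insusceptible levels of Nr3c1, Nr3c2, Fkbp5 and Crh were 2.10, 2.36, 2.47 and -2.82. In the same order, the anxiety-susceptible levels were 2.03, 2.44, 2.17 and -2.61, and the depression-susceptible means 2.35, 2.93, 1.77 and -2.36. Relative to control, Nr3c2, Fkbp5 and Crh stood at -0.26, -0.23 and -0.09 in depression-susceptible hippocampus (limma adjusted p 0.19, 0.242 and 0.725; 0.046, 0.0452 and 0.655 with slide as a block). In anxiety-susceptible hippocampus they stood at -0.75, 0.17 and -0.33 (limma adjusted p 0.0263, 0.361 and 0.217). Of the 35 corticosteroid and stress peptide genes and the 25 glucocorticoid-induced genes tested, 0 passed in limma. An unadjusted limma p under 0.05 was reached by 13 of the 35 and 11 of the 25, beside 30.9% of all probes. The 35 ran from -0.60 to 0.74 and the 25 from -0.84 to 0.63. With quantile normalization 1 (lower) of the 35 and 3 (2 higher, 1 lower) of the 25 passed, beside 10.4% of all probes.

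**Figure D5:**
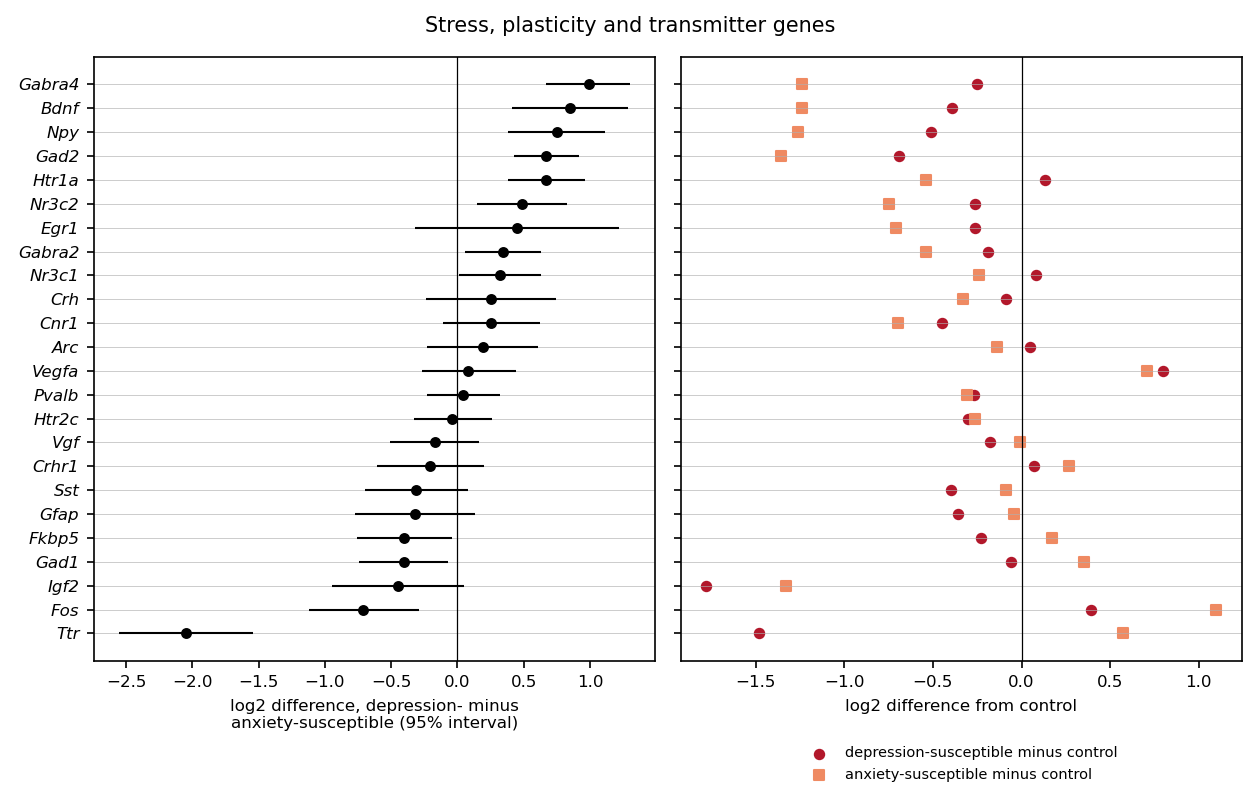
Left, the log2 difference of depression-susceptible minus anxiety-susceptible hippocampus for 24 genes, with its 95% interval from limma. Right, the same genes against control in each susceptible group; the extremes on the left are Gabra4 at 0.99 and Ttr at -2.05, and neither passed the adjusted threshold.

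Inhibitory synapse genes gave a similar picture. Gabra4, the alpha4 subunit of extrasynaptic GABA-A receptors, was at 0.23, 0.51, 0.26 and 0.29 on depression-susceptible arrays, against -0.66, -0.70, -0.66 and -0.64 on anxiety-susceptible arrays and 0.37, 0.64, 0.64 and 0.65 on control arrays. The susceptible groups did not overlap, and the difference was 0.99 (SE 0.11, limma adjusted p 0.0596). Gabrg1 and Gabrb1, subunit genes of the same receptors, differed by 0.96 and -0.53 (limma adjusted p 0.0601 and 0.0661). Gabra4, Gabrg1 and Gabrb1 stood at -0.25, -0.34 and -0.16 relative to control in depression-susceptible hippocampus, and at -1.24, -1.30 and 0.37 in anxiety-susceptible hippocampus (limma adjusted p 0.011, 0.0113 and 0.0487 in the anxiety-susceptible group). Their insusceptible levels were -0.25, -0.89 and 1.75. The anxiety-susceptible levels were -0.66, -1.20 and 1.62, and the depression-susceptible means 0.32, -0.24 and 1.09. Of the 27 GABA synapse genes, 0 passed in limma and 12 had an unadjusted p under 0.05, beside 30.9% of all probes. Above 0 were 17 of the differences, beside 54.8% of all gene symbols. Their median was 0.27 (0.01 under normexp) beside 0.05 over all gene symbols. With quantile normalization 6 were higher and 1 lower, beside 7.24% and 3.11% of all probes.

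The other lists held few or no genes past the threshold. Potassium channels had 1 higher (Kcnv2) and 1 lower (Kcnj13) of 68, both described above, and collagens, laminins and integrins had 1 lower (Itgb6) of 35. In this fit 0.14% of all probes were higher and 0.151% lower. With quantile normalization 8 channels were higher and 5 lower, and 2 of the 35 were higher and 7 lower. Of all probes, 7.24% were then higher and 3.11% lower. None of the genes tested passed among 46 of synaptic vesicles, 21 of glutamate receptors, 36 of monoamine signalling, 17 of interneurons, 78 of oxidative phosphorylation, 75 cytosolic ribosomal proteins, 45 of the proteasome, 20 of microglia, 65 of interferon response and antigen presentation, 12 of astrocytes or 18 of oligodendrocytes. Their medians lay between -0.17 (astrocytes) and 0.18 (proteasome), beside 0.05 over all gene symbols. Of the 430 genes in these 11 lists, 108 had an unadjusted p under 0.05 in limma and 49 passed with quantile normalization, beside 30.9% and 10.4% of all probes. Meningeal and fibroblast genes had the highest median of the lists without a called gene, 0.50 over 12 genes, with 5 higher and 1 lower under quantile normalization. The summed signal of 4 meningeal markers was 1.58 and 1.54 in depression-susceptible samples, 1.24 in the anxiety-susceptible sample, and 1.59 and 1.54 in control samples, and its part in that median was not tested. Of the 1101 RefSeq non-coding probes tested, 1 passed, on the lower side, where 0.151% of all probes passed. It was lower in depression-susceptible hippocampus by 1.37 (SE 0.09, limma adjusted p 0.0474). It was well above background on 2 depression-susceptible arrays and all 4 anxiety-susceptible arrays.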

How the data were processed

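RNA of male rat hippocampi was measured on 16 single-colour arrays, 4 per group. The deposited scanner files give each spot's processed intensity, with background subtracted and spatial trend removed by Agilent Feature Extraction 11.0.1.1, per the file headers. The deposited value table holds log2 values with near-equal medians (7.486 to 7.49), made by a method that no source used here names; it served as an alternative. Gene symbols came from matching RefSeq target names to a GRCr8 gene table: 14266 of 15323 messenger RNA probes.

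Control and outlier spots were dropped, spots of a probe were averaged, and the log2 signal was lowered by the array's 75th percentile. The test covered 17885 probes, those well above background on 4 or more of 16 arrays. An array had 62.2% to 74.0% of its probes at that level and 0 saturated spots, and the number of arrays and slides limits the precision. Slides were told apart by the scan identifier in the headers, and arrays of 1 group on 1 slide were averaged. All 4 groups (6 samples, 2 residual degrees of freedom) were fitted with limma 3.58.1 in R 4.3.3, without a term for slide, with two-sided moderated tests and Benjamini-Hochberg adjustment at 0.05. A probe with no usable spot in a sample was fitted without it (172 probes). Of several probes for 1 symbol, the one with the highest mean stood for the gene. Files were read and plots drawn with Python 3.11.15, pandas 2.3.3, numpy 2.4.6 and matplotlib 3.10.9.

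Normexp (offset 50) used the median signal and median background, since the files hold no mean signal. After seeing the data, 14 local backgrounds over 10 times their array's median were set to that median so that it could be fitted. Data were also simulated for this comparison (17713 probes, 200 changed). The steps called 59.7% of probes changed by 1 on the log2 scale, 94% of those changed by 2 and 100% of those changed by 4. They also called 14 of 17513 unchanged probes. The simulation drew independent noise for each sample around 1 mean per probe, with no difference shared by a slide or a scan day. Real slide differences correlated at 0.721 between the control and depression-susceptible groups, so these shares are not error rates of the real comparison.

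The comparison, its lists and its genes were chosen with earlier results of these data known. Genes were named by rule: up to 12 rises and 12 falls that passed with both normalizations, kept at least 0.5 of their log2 size under normexp and were well above background on all 4 arrays of the higher group (9 rises and 12 falls met it); the fixed list of 26; up to 4 genes per list; and non-coding probes that passed. Others that passed, and list members described beside these, were chosen after their values were seen. Some genes that the rule or lists cover are not reported here.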

Additional observations from a re-analysis of the deposited data

Results flagged for a closer look

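Of 90 sets of 4 arrays checked (45 named genes in the depression-susceptible and the anxiety-susceptible group), 1 held an array far from the others: Npy on anxiety-susceptible replicate 1, at 2.53, where the other 3 arrays were at 2.66 to 2.69. Chance alone is set to give such a gap in about 1 in 20 sets.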

How the results depend on the processing

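The count of probes that passed between depression-susceptible and anxiety-susceptible hippocampus, 52 in the 6-sample fit, depended on the processing. It was 1849 with quantile normalization, 7101 (1148 higher, 5953 lower) with normexp, under which the median of all probes moved to -0.18, 8 without the filter on dim probes, 1480 from the deposited value table, and 0 when only the compared groups were fitted (4837 at an unadjusted p under 0.05 in limma). Counting all 16 arrays as samples gave 11028, the replicate block 10474 and slide as a random block (correlation 0.467) 7396. Leaving out 1 array gave 25 to 54, the lowest without depression-susceptible replicate 2; replicates 1 and 3 of that group gave 31 and 30. Leaving out 1 slide of the depression-susceptible or control group gave 0 in each case, with 3502 to 4837 probes at an unadjusted p under 0.05.

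Depression-susceptible minus control had 1766 probes. It had 1016 without the filter, 8800 with 16 arrays, 8181 with the replicate block, 10230 with the random block and 6560 with slide as a block (slides 1 and 2, added after seeing the data; 1765 of the 1765 called probes with values on both slides had 1 sign on both); leave-one-out gave 1512 to 1766 over arrays and 407 to 661 over slides. Anxiety-susceptible minus control had 5000, with 9532 under normexp, 2399 without the filter, 12765 with 16 arrays, 12380 with the replicate block, 9957 with the random block and 1857 with only the compared groups; leave-one-out gave 4192 to 5089 over arrays and 967 to 1857 over slides. Fewer samples or no pooled spread lower these counts by construction. The cause of the other shifts was not tested. The 1766 probes were called against the spread between slides 1 and 2, so 1 sign on both slides follows largely from that selection. The fit with slide as a block left 1 residual degree of freedom.

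All 52 probes kept their sign under quantile normalization, as did all 51 in the value table, and under normexp 47 did. All 52 also kept it in every fit of 16 arrays. Those fits compare the same group means, apart from missing values, so that outcome was all but fixed in advance. Reversed under normexp were Kcnv2 (-0.22), Upk1b (-0.68), Vom2r53 (-0.04), Mob1b (-0.34) and a probe without a symbol (-0.52), and, among named genes that had not passed, Htr1a (-0.97), Gabra6 (-0.66), Grid1 (-1.0), Htr2a (-0.18), Ifit1 (-0.26), Cnr1 (-0.10) and C1ql3 (-0.14). Small differences also changed sign for Pvalb (-0.14 quantile, -0.13 value table, -0.05 to 0.13 in leave-one-out fits), Vegfa (-0.06 quantile and value table), Crhr1 (0.02 quantile) and Htr2c (-0.09 to 0.03 in leave-one-out fits). Same-numbered depression- and anxiety-susceptible arrays correlated at 0.026 to 0.072 in their deviations. Same-numbered depression-susceptible and control arrays, which lie on different slides, correlated at -0.555 to -0.435. Arrays of 1 group on 1 slide are near repeats, so these values cannot tell whether replicate numbers pair the samples. Dim signals limit the higher side, where 5 probes were well above background on 0 anxiety-susceptible arrays.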
